A study of Mus musculus with 96 samples.

Results

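The 10 genes described here encode parts of the Polycomb repressive complexes: Ezh2, Ezh1, Eed, Suz12 and Jarid2 of PRC2, and Rnf2, Ring1, Bmi1, Pcgf6 and Cbx7 of PRC1. They were taken by symbol from the 24057 genes of the deposited table. All 10 had a value above 0 in at least 1 cell, and all 10 passed the filter on low values used for the expression test. The mean log2(TPM + 1) over all cells exceeded 1 for 8 of them, and Ring1 and Cbx7 stayed under that level.

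Polycomb repressive complex 2 places methyl groups on lysine 27 of histone H3. EZH2 or its paralog EZH1 is the enzyme, EED and SUZ12 are the partners without which neither enzyme works, and JARID2 is an accessory subunit that helps the complex bind chromatin. Polycomb repressive complex 1 attaches ubiquitin to histone H2A through RNF2 or RING1, each paired with a PCGF protein such as BMI1 or PCGF6, and in its canonical form it reads methylated histone H3 through a CBX protein such as CBX7. In T cells these complexes hold developmental regulators and genes of other T helper fates silent, and EZH2 is known to be made mainly in dividing cells, whereas EZH1 is also made in resting ones.

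EL4 is a T cell lymphoma line from a mouse of strain C57BL/6 (C57BL/6 N in the methods of the study), grown in DMEM with calf serum. The cells carried a short hairpin RNA (shRNA) against luciferase (shLuc, called WT) or against Ctcf (shCTCF, called CTCF-KD), so the WT cells had also been infected and expressed a hairpin. GFP+ cells were sorted after 5 days of infection and loaded on the Fluidigm C1 system, which captures single cells in the chambers of a microfluidic circuit. Experiment 1 held the cultures shLuc #1 and shCTCF #1 and experiment 2 held shLuc #2 and shCTCF #2. Each of these 4 had a circuit of its own, so that culture, circuit and hairpin cannot be told apart within an experiment. The methods of the study list 2 hairpins against Ctcf and do not state whether shCTCF #1 and shCTCF #2 carried different ones. Hairpin and experiment may thus not be separable between the CTCF-KD cultures. The cells of 1 culture are not replicates of a condition, and all tests below compare 2 cultures with 2.

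Of 96 sequenced cells, 95 were kept, with 24 of shLuc #1 and 23 of shLuc #2, and 24 of each CTCF-KD culture. The cell left out had 81 genes and no value for any of the 10 Polycomb genes. The median number of reads per cell was 247586 and 230477 in the WT cultures #1 and #2 and 234260 and 131098 in the CTCF-KD cultures, and the median number of genes with a value was 4771, 4635, 6172.5 and 5656 in the same order, so cells of the CTCF-KD cultures showed more genes although those labelled shCTCF #2 were the shallowest. Thinned to 80000 reads per cell, the expected median was 4171 and 3962 genes in the WT cultures against 5238 and 5219 in the CTCF-KD cultures. All 10 T cell markers had reads, with a median of 9 of them per cell in every culture, while the median was 0 for markers of B cells, myeloid cells and stromal or epithelial cells, of which 2 of 6, 3 of 6 and 3 of 6 had reads in any cell. The highest correlation of log2(TPM + 1) between a pair of cells was 0.923, so no pair of cells held the same values.

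Ctcf, the target of the hairpins (chr8:105636568-105682922, + strand), had a mean of 60.3 TPM in shLuc #1 and 37.1 TPM in shLuc #2, of 16 TPM in shCTCF #1 and of 44.9 TPM in the culture labelled shCTCF #2. In the sequenced cells the transcript was thus lower in experiment 1, with a log2 change of -1.85, and not in experiment 2, where the log2 change was 0.27. By RT-qPCR and Western blotting, which are not analysed here, the study reported reduced CTCF transcript and protein in both CTCF-KD cultures. Why the sequenced cells of experiment 2 did not show a lower transcript was not tested. Across both experiments the log2 change of Ctcf was -0.79 ± 0.66 (SE, 2 cultures per condition; adjusted p = 0.815, limma). Values without the culture labelled shCTCF #2 are therefore given beside the main results.

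The order of the levels, on the scale of log2(mean TPM + 1) averaged over the 4 cultures, was Ezh2, Ezh1, Rnf2, Suz12, Eed, Pcgf6, Bmi1, Jarid2, Cbx7 and Ring1. TPM is a value per transcript length, so genes can be ordered by it. The average fell from 6.96 for Ezh2 to 1.30 for Ring1. For every pair of neighbours in this order the ranges over the 4 cultures overlapped, so the order of neighbours is not resolved. Ezh1 had the highest mean TPM of the 10 in shLuc #1 and ranked 2 in shLuc #2, 2 in shCTCF #1 and 6 in the culture labelled shCTCF #2.

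**Figure D1:**
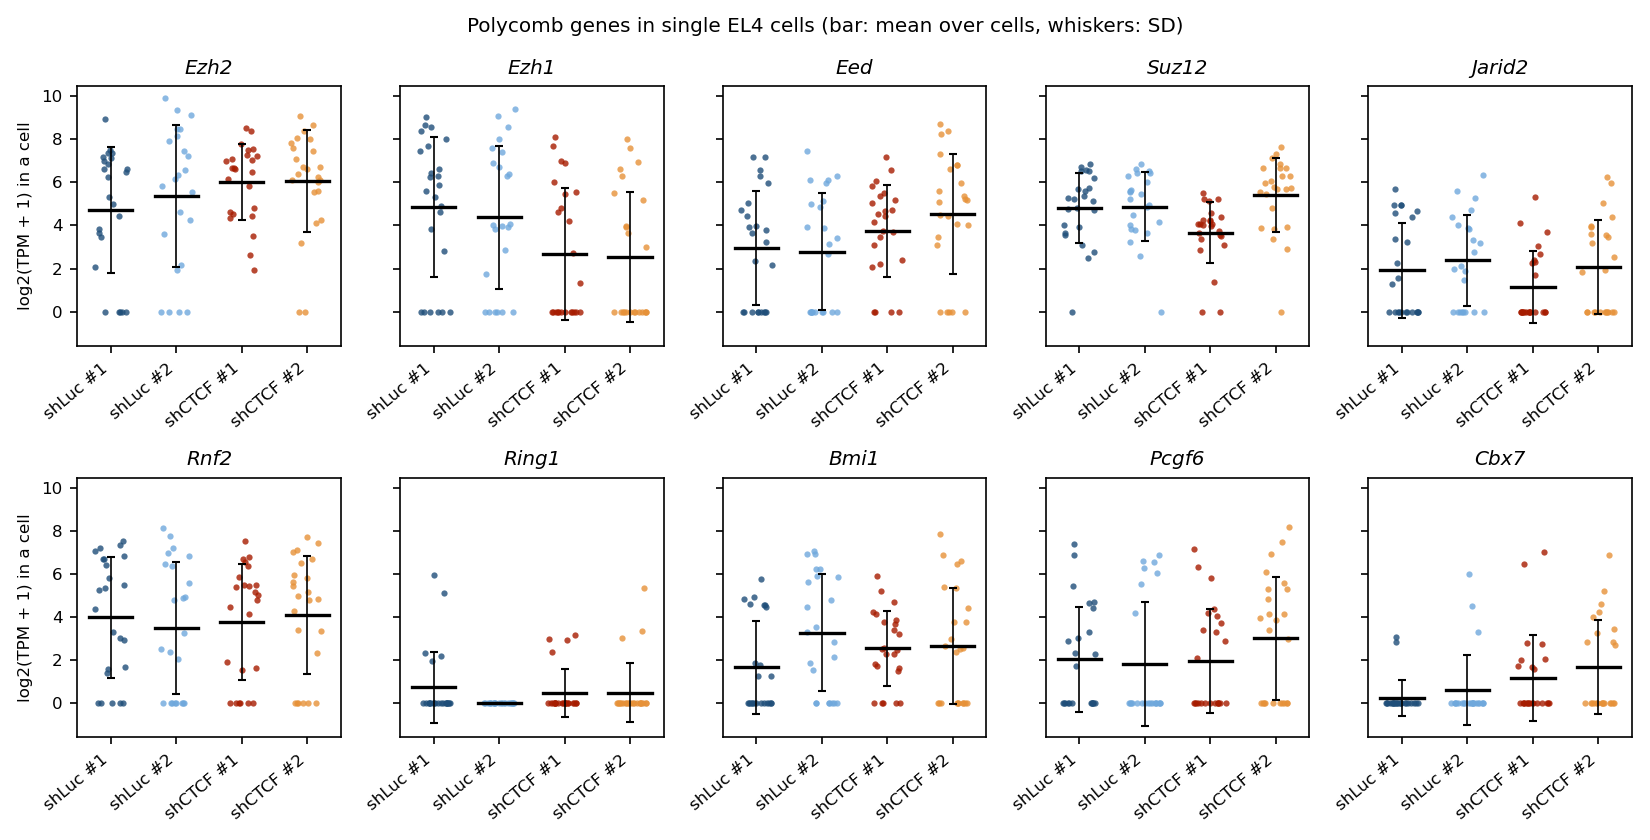
Expression of the 10 Polycomb genes in single cells. Each point is 1 cell, the vertical axis is log2(TPM + 1), the horizontal axis gives the 4 cultures under their labels, the thick bar is the mean over cells and the whiskers are the SD. Cells at 0 made up a larger part of both CTCF-KD cultures for Ezh1 and a smaller part for Ezh2, Eed and Cbx7.

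In the comparison of CTCF-KD with WT cells, which asks whether Polycomb gene expression differs after the knockdown of Ctcf, none of the 10 genes passed an adjusted p of 0.05 in limma on the culture means. None of the 11980 genes tested did, with a background of 0% called in either direction and a smallest adjusted p of 0.585. At an unadjusted p under 0.05, 1 of the 10 was called, Ezh1, which was lower, against 2.82% of all genes lower and 4.79% higher. The median log2 change was -0.00 over the 10 genes and 0.04 over all genes tested. Eed and Cbx7 were higher in both CTCF-KD cultures than in both WT cultures (background 19.9%) and Ezh1 and Rnf2 lower (background 16.9%), which is close to the background share for either direction.

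**Figure D2:**
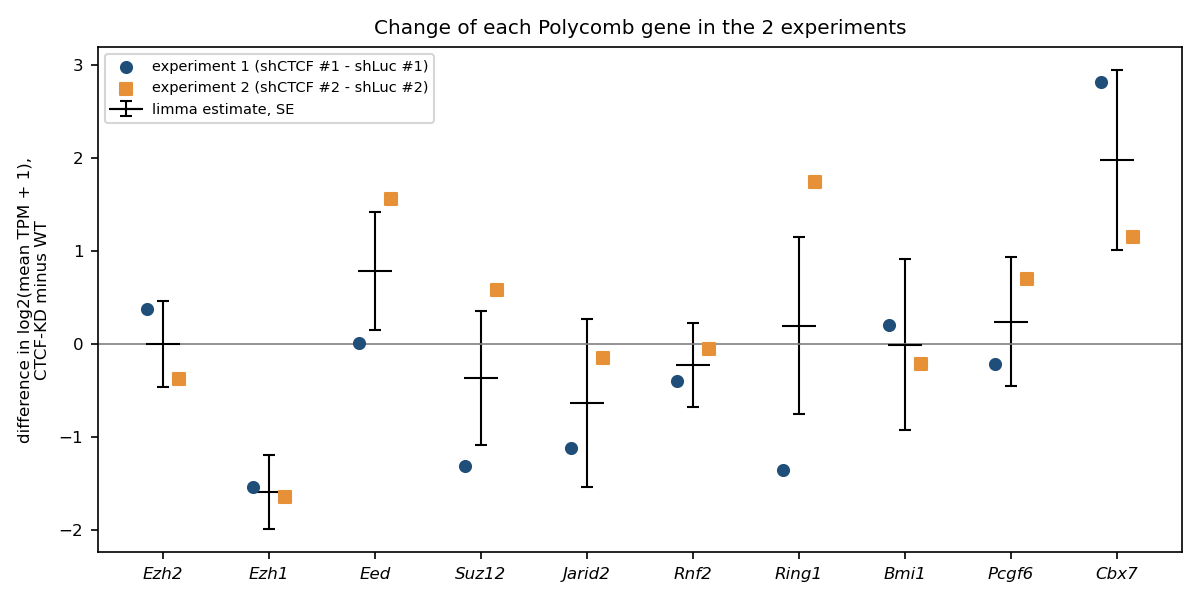
Difference in log2(mean TPM + 1), CTCF-KD minus WT, for the 10 Polycomb genes. Circles are experiment 1, squares experiment 2, and the black bar is the limma estimate from 2 cultures per condition. Its SE is drawn towards a trend over all genes tested. The values of Ezh1 in the experiments, -1.55 and -1.65, lie close together, whereas those of Suz12, Ring1, Ezh2, Bmi1 and Pcgf6 lie on both sides of 0.

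Ezh1, the PRC2 methyltransferase that non-dividing cells also make, lies at chr11:101191115-101226463 on the - strand of GRCm38, and no other gene of the annotation overlaps it. Its mean was 118 ± 153 TPM (SD over 24 cells) in shLuc #1 and 116 ± 186 TPM (23 cells) in shLuc #2, against 39.6 ± 72 TPM (24 cells) in shCTCF #1 and 36.4 ± 67.6 TPM (24 cells) in the culture labelled shCTCF #2. The groups did not overlap. The log2 change was -1.60 ± 0.40 (SE; unadjusted p = 0.0060, adjusted p = 0.585, limma), which is a 3.03-fold lower geometric mean of TPM + 1. A change at or below that value was seen for 3.73% of all genes tested. The exact permutation test over cultures gave p = 0.333 (two-sided), the smallest value that 2 cultures against 2 allow. Without the culture labelled shCTCF #2 the log2 change was -1.54, and over the 12 alternative settings it ranged from -2.01 to -1.41.

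The same order appeared in the reads themselves, which were recovered from the steps of the TPM values. Ezh1 had 1617 reads in shLuc #1 and 1235 in shLuc #2, against 476 in shCTCF #1 and 258 in the culture labelled shCTCF #2. As reads per 1000000 recovered reads of the culture (RPM) this was 261 (95% Poisson interval 249 to 274) and 225 (212 to 238) in WT and 84.9 (77.4 to 92.9) and 79.8 (70.4 to 90.2) in CTCF-KD. The intervals cover counting error only, since no molecular identifiers were used. No single cell held more than 35.1% of the Ezh1 reads of a culture.

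Both the share of cells with Ezh1 reads and the level in those cells were lower in CTCF-KD. Reads were present in 18 of 24 cells (75%, Wilson 95% interval 55.1 to 88%) of shLuc #1 and 17 of 23 (73.9%, 53.5 to 87.5%) of shLuc #2. In shCTCF #1 they were present in 12 of 24 (50.0%, 31.4 to 68.6%), and in the culture labelled shCTCF #2 in 11 of 24 (45.8%, 27.9 to 64.9%). The intervals of single cultures overlapped, and the 4 shares did not. Cells with reads had a median of 81.3 TPM in shLuc #1 and 81.7 TPM in shLuc #2, and of 44.4 TPM in shCTCF #1 and 44.2 TPM in the culture labelled shCTCF #2.

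Ezh2, the PRC2 methyltransferase of dividing cells, lies at chr6:47530139-47595341 on the - strand, where 174 exon bases are shared with a noncoding gene of the other strand, Gm26625, which has no row in the table. Its mean was 84.2 ± 108 TPM in shLuc #1, 180 ± 252 TPM in shLuc #2, 109 ± 97.8 TPM in shCTCF #1 and 138 ± 139 TPM in the culture labelled shCTCF #2, with the SD taken over cells. Both CTCF-KD values fell between the WT values, and the log2 change of -0.00 ± 0.46 (SE; adjusted p = 1.00, limma) was smaller than the difference between the WT cultures. It was 0.37 in experiment 1 and -0.38 in experiment 2, and -0.17 without the culture labelled shCTCF #2.

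The cultures were set apart by the share of cells with Ezh2 rather than by its mean level. A share that was higher in both CTCF-KD cultures was common, at 36.2% of all genes tested. Reads were found in 19 of 24 cells (79.2%, Wilson 95% interval 59.5 to 90.8%) of shLuc #1 and 19 of 23 (82.6%, 62.9 to 93%) of shLuc #2. They were found in all 24 cells (100%, 86.2 to 100%) of shCTCF #1 and in 22 of 24 (91.7%, 74.2 to 97.7%) in the culture labelled shCTCF #2. The median among cells with reads was nearly equal, at 98.3, 93.1, 99.1 and 99.3 TPM, and the highest cell had 497, 969, 368 and 539 TPM. When log2(TPM + 1) was averaged over cells, a scale in which cells at 0 weigh more, Ezh2 was higher by 1.01 in CTCF-KD (adjusted p = 0.368, limma), beside a shift of 0.23 of the median gene on that scale.

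Since EZH1 and EZH2 can in part replace each other, the ratio of Ezh2 to Ezh1 was computed within each culture. The ratio of mean TPM was 0.716 in shLuc #1 and 1.55 in shLuc #2, against 2.76 in shCTCF #1 and 3.81 in the culture labelled shCTCF #2. Both CTCF-KD ratios lay above both WT ratios. No background share was computed for ratios of gene pairs. The log2 change was -1.60 for Ezh1 and -0.00 for Ezh2, so the ratio mostly restates the change of Ezh1. The mean log2 ratio was higher by 1.62, or 3.08-fold, in CTCF-KD (exact permutation test over cultures, two-sided, p = 0.333, the smallest possible), with 1.95 in experiment 1 and 1.30 in experiment 2. It was 1.39 without the culture labelled shCTCF #2, 1.64 on recovered reads, which weigh cells by their depth, and 3.02 as the difference of the means over cells of log2(TPM + 1), in which cells at 0 weigh more.

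The ratio could also be read in single cells. More TPM of Ezh2 than of Ezh1 was found in 11 of 24 and 14 of 23 WT cells of the cultures #1 and #2, and in 20 of 24 and 19 of 24 CTCF-KD cells, while Ezh1 was the higher one in 11 and 7 WT cells and in 4 and 4 CTCF-KD cells. Reads of both enzymes were found in 15 and 15 WT cells against 12 and 10 CTCF-KD cells, and reads of Ezh2 alone in 4 and 4 against 12 and 12. Ezh1 alone was seen in 3 and 2 WT cells and in 0 and 1 CTCF-KD cells. A cell with no read of a gene may still express it at a level under the depth of that cell.

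**Figure D3:**
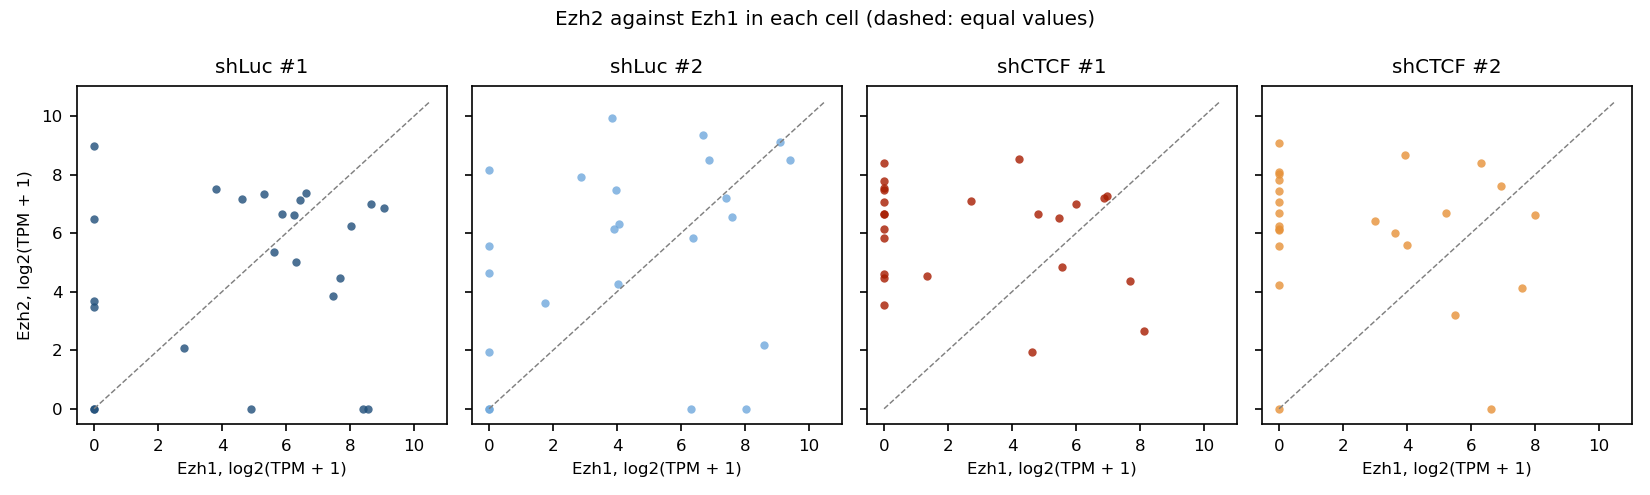
Ezh2 against Ezh1 in each cell, 1 panel per culture, both axes in log2(TPM + 1), with a dashed line where both values are equal. Cells above the line have more Ezh2: 11, 14, 20 and 19 cells from the left panel to the right one.

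The sequences before the start sites of these enzymes are shown because their ratio did not overlap between the conditions. CTCF is also known to bind near many gene starts. Given are the 250 bases before the RefSeq start on GRCm38.p6, 5′ to 3′ on the strand of the gene. They lie at chr11:101226464-101226713 for Ezh1 and at chr6:47595031-47595280 for Ezh2. The Ezh2 window lies inside the gene span given above, which is from GENCODE and reaches chr6:47595341, so it may hold transcribed bases. Capitals mark matches to AGNNGGCGC, which are letters from the middle of the CTCF consensus, searched on both strands and chosen with these sequences in view.
Ezh1: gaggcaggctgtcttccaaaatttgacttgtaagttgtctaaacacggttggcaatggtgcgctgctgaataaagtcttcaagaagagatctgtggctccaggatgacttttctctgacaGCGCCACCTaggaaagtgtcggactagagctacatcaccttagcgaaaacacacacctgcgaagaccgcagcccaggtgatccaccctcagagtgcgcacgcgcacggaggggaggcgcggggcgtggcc
Ezh2: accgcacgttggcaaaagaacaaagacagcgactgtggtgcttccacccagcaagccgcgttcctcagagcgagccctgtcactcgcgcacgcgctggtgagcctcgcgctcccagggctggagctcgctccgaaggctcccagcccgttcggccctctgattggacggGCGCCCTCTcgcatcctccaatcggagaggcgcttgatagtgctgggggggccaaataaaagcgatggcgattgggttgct
The match lay 130 to 122 bases before the RefSeq start of Ezh1 and 81 to 73 bases before that of Ezh2, on the strand opposite to the gene in both. Among 32851 promoter windows of the same length 5.84% held such a match. Among the 11 windows of the 10 genes (Jarid2 has more than 1) no other did. Since the letters were chosen with these sequences in view, neither comparison can tell whether the match is particular to this pair. A match is a description of letters, and CTCF binding was not measured in these data.

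Eed, the PRC2 subunit that binds trimethylated H3 and stimulates the enzyme, lies at chr7:89954654-89980983 on the - strand. Its mean was 27.7 TPM in shLuc #1, 25.8 TPM in shLuc #2 and 28 TPM in shCTCF #1, and 77.9 TPM in the culture labelled shCTCF #2. Only that last culture stood apart in the level, so that the log2 change was 0.79 ± 0.64 (SE; adjusted p = 0.810, limma), with 0.01 in experiment 1 and 1.56 in experiment 2, and it was 0.06 without the culture labelled shCTCF #2. The share of cells with Eed reads differed in both experiments: 15 of 24 and 13 of 23 WT cells against 20 of 24 and 19 of 24 CTCF-KD cells (background 36.2% of all genes tested). The E230029C05Rik gene shares 261 exon bases with Eed on the other strand and had no reads.

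Suz12, the subunit that holds PRC2 together, lies at chr11:79993106-80034123 on the + strand and was found in most cells of each culture. It had reads in 23 of 24, 22 of 23, 22 of 24 and 23 of 24 cells, in the order of the cultures used above. The mean of Suz12 was 42.2 TPM in shLuc #1, 43.4 TPM in shLuc #2, 16.4 TPM in shCTCF #1 and 65.4 TPM in the culture labelled shCTCF #2. The WT cultures thus differed little from each other, and the CTCF-KD cultures lay on either side of them, with log2 changes of -1.31 in experiment 1 and 0.58 in experiment 2. Over both, the change was -0.37 ± 0.72 (SE; adjusted p = 0.937, limma), and without the culture labelled shCTCF #2 it was -1.33.

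Jarid2, the accessory subunit (chr13:44729474-44921643, + strand), was low. Its mean was 9.70 TPM in shLuc #1, 12.4 TPM in shLuc #2, 3.92 TPM in shCTCF #1 and 11.1 TPM in the culture labelled shCTCF #2, with reads in 12, 15, 9 and 13 cells. The groups overlapped, and the log2 change was -0.64 ± 0.90 (SE; adjusted p = 0.899, limma). It was -1.12 in experiment 1 and -0.15 in experiment 2, and -1.29 without the culture labelled shCTCF #2.

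A cell was counted as holding a full set of PRC2 transcripts where reads of Eed, of Suz12 and of at least 1 of the enzymes were found. This was the case in 14 of 24 cells (58.3%) of shLuc #1 and 11 of 23 (47.8%) of shLuc #2, and in 19 of 24 (79.2%) of shCTCF #1 and 18 of 24 (75%) in the culture labelled shCTCF #2. With Ezh2 as the enzyme it was 13, 11, 19 and 17 cells, and with Ezh1 it was 11, 9, 9 and 9. The full set was not counted after thinning. For single genes a share of cells that was higher in both CTCF-KD cultures was common, at 36.2% of all genes tested. The median number of the 10 genes found per cell was 5.5, 6, 6 and 6, and the mean was 5.67, 5.52, 6.17 and 6.13. With cells thinned to an equal number of reads, the mean was 4.85, 4.93, 5.09 and 5.84.

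Rnf2, the ubiquitin ligase of most PRC1 complexes, lies at chr1:151458004-151500955 on the - strand and was the most even member across cultures. Its mean was 51.8 TPM in shLuc #1, 52.1 TPM in shLuc #2, 39 TPM in shCTCF #1 and 50.1 TPM in the culture labelled shCTCF #2, and reads were found in 19, 15, 18 and 18 cells. Both CTCF-KD means were below both WT means, with log2 changes of -0.40 and -0.06 in experiments 1 and 2, and the change of -0.23 ± 0.45 (SE; adjusted p = 0.937, limma) was smaller than its error and was -0.41 without the culture labelled shCTCF #2. Trmt1l shares 158 exon bases with Rnf2 on the other strand and had reads in 41 cells. Rnf2 reads were found without Trmt1l reads in 10, 9, 6 and 12 cells.

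Its paralog Ring1 (chr17:34020792-34024680, - strand) was near the limit of detection. It had 21 reads in 5 cells of shLuc #1, 7 reads in 4 cells of shCTCF #1, 7 reads in 3 cells of the culture labelled shCTCF #2 and no read in 23 cells of shLuc #2, where a count of 0 allows up to 0.546 RPM (3 reads in that culture), or 0.672 RPM as the upper bound of the 95% Poisson interval. No fold change is given, since 1 WT culture was at 0 and a fitted value depends on the pseudocount. The ratio of Rnf2 to Ring1 mean TPM was 12.1 in shLuc #1, 36.3 in shCTCF #1 and 21.3 in the culture labelled shCTCF #2, so Rnf2 was the main transcript of the pair in each culture where a ratio could be formed.

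Bmi1 and Pcgf6 are PCGF proteins, which set the kind of PRC1 complex: BMI1 belongs to the canonical form and PCGF6 to a variant one. Bmi1 (chr2:18677018-18686629, + strand) had a mean of 8.62 TPM in shLuc #1, 33.2 TPM in shLuc #2, 10.1 TPM in shCTCF #1 and 28.4 TPM in the culture labelled shCTCF #2. The values split by experiment rather than by condition, with log2 changes of 0.20 and -0.22. Pcgf6 (chr19:47033617-47050906, - strand) had 17.9, 22.3, 15.3 and 36.8 TPM in the same order, with log2 changes of -0.21 and 0.70. Neither differed over both experiments (-0.01 ± 0.92 and 0.24 ± 0.70, SE; adjusted p = 1.00 and 0.962, limma), and without the culture labelled shCTCF #2 the changes were -0.71 for Bmi1 and -0.37 for Pcgf6. The difference in the log2 ratio of Bmi1 to Pcgf6, CTCF-KD minus WT, was -0.25, with overlapping cultures (exact permutation test over cultures, two-sided, p = 1).

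Cbx7, a reader of trimethylated H3 in canonical PRC1, lies at chr15:79915807-79971119 on the - strand and was rare in WT cells. It had 4 reads in 2 of 24 cells of shLuc #1 and 24 reads in 3 of 23 cells of shLuc #2. It had 97 reads in 9 of 24 cells of shCTCF #1 and 47 reads in 10 of 24 cells of the culture labelled shCTCF #2. Both CTCF-KD cultures lay above both WT cultures in reads and cells, at 17.3 (95% Poisson interval 14 to 21.1) and 14.5 (10.7 to 19.3) RPM against 0.646 (0.176 to 1.65) and 4.37 (2.80 to 6.50) RPM. For the share of cells this was so in 36.2% of all genes tested.

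The mean of Cbx7 was 0.559 TPM in shLuc #1, 4.08 TPM in shLuc #2, 10.0 TPM in shCTCF #1 and 10.3 TPM in the culture labelled shCTCF #2. The log2 change was 1.98 ± 0.97 (SE; unadjusted p = 0.083, adjusted p = 0.696, limma), with 2.82 in experiment 1 and 1.15 in experiment 2. A change of this size or larger was seen for 3.47% of all genes tested. It was 1.97 without the culture labelled shCTCF #2, 1.13 without shLuc #1, 2.84 without shLuc #2 and 0.72 with a pseudocount of 10. A single cell held 58.8% of the reads in shCTCF #1 and 48.9% in the culture labelled shCTCF #2. In WT a single cell held 50% of the 4 reads in shLuc #1 and 70.8% of the 24 reads in shLuc #2. Apobec3 shares 100 exon bases with Cbx7 on the other strand and was abundant, at 165, 267, 182 and 227 TPM. It had reads in 91 of the 95 cells, and every cell with Cbx7 reads was among them. The strand setting of the counting is not given in the sources used here, so Cbx7 reads from the shared bases cannot be told apart from reads of Apobec3. The levels of Apobec3 overlapped between the conditions.

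The share of cells with reads was compared for all 10 genes over cultures. It was higher in both CTCF-KD cultures than in both WT cultures for Ezh2, Eed and Cbx7, which is 3 of 10 against a background of 36.2% of all genes tested. It was lower for 1 of 10, Ezh1, against a background of 5.96%. The difference was 14.9 percentage points for Ezh2, 21.7 for Eed, 28.9 for Cbx7 and -26.5 for Ezh1 (exact permutation test over cultures, two-sided, p = 0.333 for each, the smallest possible). With TPM above 10 as the limit, Cbx7 was no longer apart, at 10.2 points (p = 0.667, exact permutation test), while the difference was 17.2 points for Ezh2, 22 for Eed and -26.4 for Ezh1. Without the culture labelled shCTCF #2, 4 of the 10 were higher and 3 lower, where 57.4% of all genes were higher and 10.0% lower. The median difference was 7.61 points over the 10 genes and 5.98 points over all genes, so a higher share was the usual direction in these cells.

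Cells differed in depth, and so the share expected at 80000 reads per cell was computed from the recovered reads, with 1 shallower cell of the culture labelled shCTCF #2 left out. The share of cells with Ezh1 became 73.6 and 68.7% in WT against 45.6 and 42.5% in CTCF-KD. That of Ezh2 became 73.9 and 75.1% against 93.4 and 89.3%, that of Eed 50.5 and 47.4% against 67.4 and 77.3%, and that of Cbx7 5.40 and 11.6% against 20.5 and 36.3%. At this depth Rnf2 and Pcgf6 joined the genes with a higher share, making 5 of 10 (background 46.4%), and Ezh1 remained the 1 with a lower share (background 6.32%).

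**Figure D4:**
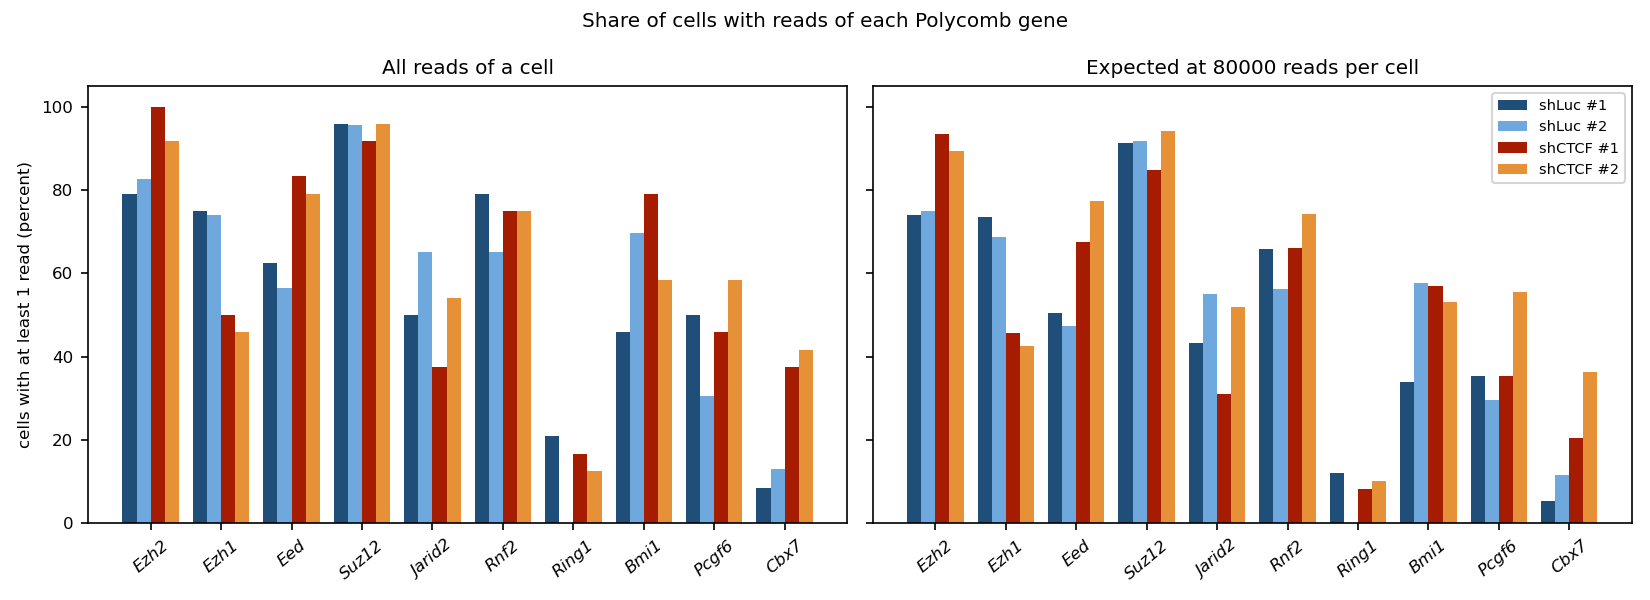
Share of cells with at least 1 read of each Polycomb gene in the 4 cultures, in percent, for all reads of a cell (left) and computed for 80000 reads per cell (right). For Ezh1 both CTCF-KD bars stand below both WT bars in both panels, and for Ezh2, Eed and Cbx7 above them.

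Cell-to-cell variation was measured by the coefficient of variation (CV) that the study used, which divides the SD of log2(TPM + 1) across the cells of a condition by the mean. Genes with a mean above 1 entered, which holds for 8 of the 10 genes. The mean difference over all 7843 genes was -0.28, and a difference over 1 SD away from it, below -0.69 or above 0.13, counted as a call. The CV was called increased for Ezh1, from 0.704 in WT to 1.16 in CTCF-KD, and for Jarid2, from 1.00 to 1.22, which is 2 of 8 against a background of 7.68% of all genes. Jarid2 was no longer called without shLuc #2 or without shCTCF #1, which left 1. None of the 8 was called decreased (background 11.3%). The rule has no replicate error.

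Per culture, the CV of Ezh1 was 0.668 in shLuc #1 and 0.758 in shLuc #2, against 1.14 in shCTCF #1 and 1.20 in the culture labelled shCTCF #2. These did not overlap, whereas those of Jarid2, at 1.15, 0.891, 1.44 and 1.05, did. In the opposite direction, the CV of Ezh2 was 0.620 and 0.613 in WT against 0.294 and 0.389 in CTCF-KD, and that of Eed was 0.902 and 0.974 against 0.572 and 0.617. A CV above both WT cultures in both CTCF-KD cultures was seen for 1 of 8 (background 4.90%), and a lower one for 2 of 8 (background 53.9%).

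In limma on the CV of each culture, over 7823 genes, none of the 8 passed an adjusted p of 0.05 (background 0.0639% higher and 4.14% lower), and 3 had an unadjusted p under 0.05 (background 0.601% higher and 27.2% lower). The difference was 0.46 ± 0.17 (SE) for Ezh1 (adjusted p = 0.126, limma), -0.28 ± 0.09 for Ezh2 (adjusted p = 0.093, limma) and -0.34 ± 0.14 for Eed (adjusted p = 0.152, limma). With the experiment as a replicate block, Ezh2 passed at an adjusted p of 0.034 in limma, where 19.9% of all genes were called lower and 0.307% higher. Without the culture labelled shCTCF #2 the differences were 0.43 for Ezh1, -0.32 for Ezh2 and -0.37 for Eed.

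The CV of log2 values depends on their mean, and Ezh1 had a lower mean in CTCF-KD. When the CV was taken over the running median of genes of like mean, Ezh1 was no longer called and Suz12 was called increased instead. The SD of log2(TPM + 1) was 3.25 in WT and 3.02 in CTCF-KD for Ezh1, so its spread on the log scale was not larger in CTCF-KD. For Ezh2 it was 3.09 in WT and 2.06 in CTCF-KD, which was called a decrease under the same rule applied to the SD. Over all 7843 genes the median CV was 1.07 in WT cells and 0.801 in CTCF-KD cells.

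**Figure D5:**
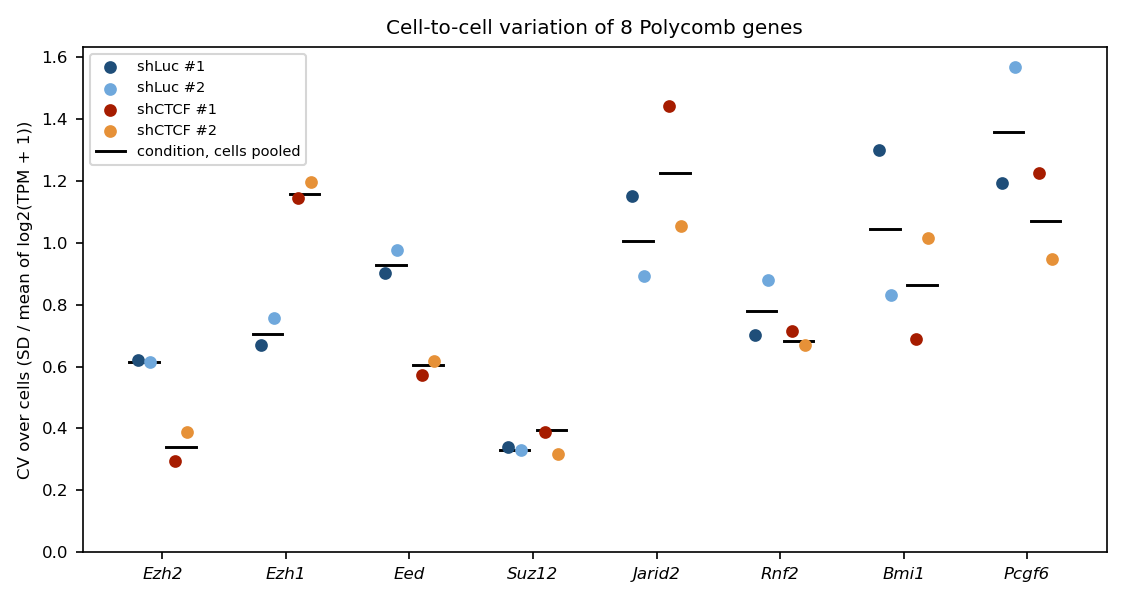
CV of log2(TPM + 1) over cells for the 8 Polycomb genes with a mean above 1. Points are the 4 cultures and black lines the conditions with cells pooled. Ezh1 stands higher in both CTCF-KD cultures, and Ezh2 and Eed stand lower.

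Within each culture, Ezh2 was compared with the mean of 20 G1/S genes and of 20 G2/M genes over cells. Spearman's rho with the G1/S genes was 0.481 in shLuc #1 (24 cells), 0.614 in shLuc #2 (23 cells), 0.128 in shCTCF #1 (24 cells) and 0.304 in the culture labelled shCTCF #2 (24 cells), and with the G2/M genes 0.459, 0.616, 0.179 and 0.272. For Ezh1 rho with the G1/S genes ran from -0.22 to 0.25 and changed sign between cultures. All values of a cell share its library and depth, and rho of Ezh2 with the number of genes detected was 0.355, 0.520, 0.057 and 0.227. On culture means of TPM the median log2 change was 0.65 over the G1/S genes and -0.36 over the G2/M genes. Averaged within cells on the log2 scale, both sets were higher in both CTCF-KD cultures. The G2/M genes had 3.534 and 3.746 in WT against 5.001 and 4.174 in CTCF-KD. The G1/S genes had 2.849 and 3.582 against 5.026 and 4.813. The direction of the G2/M genes thus depended on the scale. The part of either set in the values of Ezh2 and Ezh1 was not tested.

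Of the 10 genes, Ezh2, Eed, Suz12 and Rnf2 had reads in at least 50% of the cells of every culture, and the genes most like them over cells were sought among 3697 genes detected as widely, by the mean of Spearman's rho over the 4 cultures. For Ezh2 these were Knop1 (0.467), Prc1 (0.465) and Cdca2 (0.452). For Eed they were Mrpl32 (0.483), Nudt16l1 (0.424) and Rheb (0.368), for Suz12 Gmnn (0.420), Pitpnb (0.386) and Myg1 (0.374), and for Rnf2 Ldah (0.415), Sf3a1 (0.394) and Ankfy1 (0.386). The lowest rho of these pairs in a single culture ran from 0.054 for Ldah with Rnf2 to 0.361 for Cdca2 with Ezh2 and for Myg1 with Suz12. The named genes were picked as the highest among 3697 on few cells per culture, where high values also arise by chance. Whether their rho exceeds that level was not tested.

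Of 43 further Polycomb genes on a list of subunits and partners, 42 had a row, 38 had reads and 37 were tested. None passed an adjusted p of 0.05 in limma. At an unadjusted p under 0.05, 1 was higher, Rbbp7, a histone-binding subunit of PRC2, and 1 was lower, Pcgf1, the PCGF protein of a variant PRC1 that also holds KDM2B, against 4.79% of all genes higher and 2.82% lower, so neither count exceeded the background. In 4 of the 37 both CTCF-KD cultures lay above both WT cultures and in 10 below (background 19.9% and 16.9%), and the median log2 change was -0.27, which ranged from -0.63 to 0.11 when 1 culture was left out and was -0.51 without the culture labelled shCTCF #2.

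Rbbp7 had 177 and 282 TPM in WT against 366 and 451 TPM in CTCF-KD, a log2 change of 0.86 ± 0.36 (SE; adjusted p = 0.653, limma). Pcgf1 had 45.4 and 60.3 TPM against 18 and 21.2 TPM, a log2 change of -1.37 ± 0.53 (SE; adjusted p = 0.627, limma). Next by the limma statistic on the higher side came Cbx8, a CBX reader of PRC1, and Yaf2, a subunit of variant PRC1. Their log2 changes were 2.13 and 0.94. Cbx8 had reads in only 2 and 1 WT cells and in 8 and 5 CTCF-KD cells. On the lower side Phc1 and Phc2, the polyhomeotic subunits of canonical PRC1, had log2 changes of -1.42 and -1.30. Each of these genes moved the same way in both experiments, which their choice by the limma statistic on the same cultures favours. Opposite directions in the experiments were seen for 38.5% of all genes tested. None of these genes passed the adjusted test.

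The H3K27 demethylase Kdm6a had 16.2 and 11.9 TPM in WT and 4.81 and 5.30 TPM in CTCF-KD, a log2 change of -1.30 ± 0.83 (SE; adjusted p = 0.775, limma). Its relative Kdm6b had reads in all 95 cells and a log2 change of 0.35 ± 0.45 (SE; adjusted p = 0.884, limma). Of 48 known Polycomb targets, mostly Hox genes, 31 had reads and 28 were tested. None passed the adjusted test. At an unadjusted p under 0.05, 1 was called, Tbx21, which was higher, with reads in only 3 cells, all of them CTCF-KD. The background was 4.79% of all genes higher and 2.82% lower. The median log2 change of the 28 targets was -0.12.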

How the data were processed

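Single EL4 cells of 4 cultures were sequenced after capture on the Fluidigm C1 system with the SMARTer protocol. The authors aligned the reads to GRCm38 with STAR, retained reads with 1 mapping position, used HTSeq for counts on 24057 genes, and deposited TPM values of 96 cells. These are relative to gene length and to the total of a cell. The authors tested expression with edgeR, which needs counts and was not used here.

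Cells under 3000 genes were left out. Whole reads were recovered from the TPM steps (100% of 504524 values lay within 0.001 of a whole read) and used for depth, reads per 1000000 (RPM) and thinning to 80000 reads per cell by the expectation of the hypergeometric distribution. The recovered totals were 6192121 and 5493040 reads in WT cultures #1 and #2 and 5606532 and 3232422 in CTCF-KD cultures #1 and #2, so single values are least precise in shCTCF #2. No count model was fitted, since the design named TPM as the unit.

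Culture values of log2(mean TPM + 1) were compared with limma 3.58.1 in R 4.3.3 (trend, Benjamini-Hochberg over the 11980 genes in which 2 or more cells exceeded a log2(TPM + 1) of 1). With 2 cultures per condition, p-values cover only the spread between cultures of this series. In limma the spread of a gene is drawn towards a trend over all genes of the fit. Its SE and p-value are thus not those of the gene's own 4 values alone. Single values were compared by exact permutation tests. Genes named besides the 10 members and Ctcf were those with the 3 highest and 3 lowest limma statistics of the other Polycomb genes, and the 3 most alike over cells. The demethylases and Tbx21 were named after their values were seen. The culture number marks the experiment, per the methods of the study, and the deviations of cultures of the same number correlated at 0.175 over genes. Alternatives were other scales, pseudocounts, filters, centring, the experiment as a replicate block and leaving out each culture. The scripts were tested on simulated data. Members and lists were chosen with earlier results of these data known. Promoters are from RefSeq (all 10 symbols matched), and gene positions from GENCODE on the same assembly.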

Additional observations from a re-analysis of the deposited data

Results flagged for a closer look

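For 5 of the 10 genes the change of the culture mean had opposite signs in experiments 1 and 2, each with 1 culture per condition, while the values of single cells overlapped between the cultures. This was the case for 38.5% of all genes tested, and the difference between the experiments was not tested. The log2 change in experiments 1 and 2 was 0.37 and -0.38 for Ezh2, -1.31 and 0.58 for Suz12, -1.35 and 1.74 for Ring1, 0.20 and -0.22 for Bmi1, and -0.21 and 0.70 for Pcgf6. For Ring1 the value of experiment 2 is set against a WT culture with no reads and depends on the pseudocount of 1. The transcript of Ctcf itself also had opposite signs, at -1.85 and 0.27, and its part in these values was not tested.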

How the results depend on the processing

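No Polycomb gene, among the 10 or the other 37 tested, passed an adjusted p of 0.05 in limma on expression under any of the 12 alternatives, the replicate block included. Ezh1, Eed and Cbx7 kept the direction of their change in all 12. The cause of the changes below was not tested. Values of low genes are limited by depth, most of all for Ring1 and Cbx7.

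The log2 change turned sign for Ezh2, Rnf2 and Bmi1 with log2(TPM + 1) averaged over cells (1.01, 0.19 and 0.13), for Ring1 with a pseudocount of 10 (-0.032), for Ezh2 and Bmi1 with centred cultures (0.031 and 0.025) and for the same 2 genes on RPM of recovered reads (0.079 and 0.071). When each culture was left out in turn it ranged from -0.55 to 0.54 for Ezh2, from -1.33 to 0.60 for Suz12, from -1.29 to 0.013 for Jarid2, from -1.01 to 1.4 for Ring1, from -0.92 to 0.91 for Bmi1 and from -0.37 to 0.85 for Pcgf6. The median change of the other Polycomb genes, -0.27, moved to 0.063 on the mean over cells, -0.15 with a pseudocount of 10 and -0.18 on recovered reads, and ranged from -0.63 to 0.11 with 1 culture left out.

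Genes with a higher share of cells in every CTCF-KD culture numbered 5 after thinning (46.4% of all genes) and 4 to 6 with a culture left out (43.7 to 57.4% of all genes), and those with a lower share 1 to 3 (10.0 to 18.7%). With TPM above 10 the difference in the share became -2.08 points for Ring1 and -3.08 points for Bmi1. With a culture left out it ranged from -4.08 to 0.091 points for Suz12, from -4.17 to 9.78 for Rnf2, from -6.25 to 14.6 for Ring1 and from -0.82 to 22.9 for Bmi1.

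The number of genes called with an increased CV was 3 on linear TPM (Ezh1, Jarid2 and Bmi1; 8.94% of all genes), 0 on the SD, 1 over the running median (9.35%), 1 with a mean above 0.5 (6.60%), 1 in experiment 2 alone (7.98%) and 1 to 2 with a culture left out (7.01 to 8.31%). The number called decreased was 1 on the SD (Ezh2; 13.2%) and 1 with a mean above 0.5 (Cbx7; 9.85%). In limma the replicate block gave 1 gene past the threshold in place of 0, Ezh2, and changed no other call. The difference of the culture CV turned sign on the SD for Ezh1, Suz12 and Jarid2 (-0.23, -0.050 and -0.25), on linear TPM for Suz12, Bmi1 and Pcgf6 (-0.058, 0.16 and 0.0075) and over the running median for Rnf2 and Pcgf6 (0.015 and 0.038). With a culture left out it ranged from -0.45 to 0.019 for Bmi1 and from -0.018 to 0.053 for Suz12. With a culture left out the difference in the log2 ratio of Bmi1 to Pcgf6 ranged from -1.06 to 0.57, and that of Ezh2 to Ezh1 from 1.07 to 2.18.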
